A study of Mus musculus with 12 samples.

Results

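The antiviral interferon-stimulated effectors are the proteins that a cell makes once interferon has reached it and that sense, bind, cut or trap viral RNA and virus particles. Their genes were taken from a list of 41 symbols, and a gene was a member when its symbol stood in the expression table of the study. A row was found for 40 of the 41 symbols, among 11289 genes in all, and Mx2 was not analysed here because no row carries its symbol. Liver RNA of 12 C57BL/6J mice, male per the study's methods and aged 8 to 10 weeks per the labels, was sequenced in 3 groups of 4 mice. Control mice received neither Con A nor cells per the labels. Con A + PBS mice received concanavalin A (Con A), at 15 mg/kg into the tail vein, followed after 30 min by PBS. Con A is a lectin from jack beans that drives T cells into activation and brings on an acute immune hepatitis. Con A + hWJ-MSCs mice received the same dose of Con A and, after 30 min, 2000000 (the number in the labels) human mesenchymal stromal cells grown from the Wharton's jelly of umbilical cord, and the liver was taken 24 h after Con A. The donor cells were human and the recipients mouse, all mice were of 1 inbred strain, and only 1 time after Con A was sampled.

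Type I and type III interferons bind their receptors on the cell surface and activate the kinases Jak1 and Tyk2, which leads to the assembly of the complex ISGF3, with STAT2 and IRF9 among its parts. ISGF3 binds the interferon-stimulated response element (ISRE) in front of the effector genes, and interferon gamma, made by activated T cells and NK cells, acts on a different element, the gamma-activated site (GAS). Several effectors respond to both kinds of interferon. In the liver the effector genes are induced in hepatocytes and in non-parenchymal cells alike.

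The ISRE core appears in these genes as blocks of GAAA separated by a pair of arbitrary bases, or as TTTC blocks when it lies on the other strand. It was looked for on both strands in the 250 bases before the start of each gene, in the promoter sequences of RefSeq for the build GRCm38.p6, which held 32 of the 40 members. The core was found in 9 of these 32 promoters (28.1%), against 244 of the 8492 genes of the table with such a sequence (2.87%). The GAS core, TTC and GAA separated by any 3 bases, was found in 5 of the 32 (15.6%) and in 511 of the 8492 (6.02%). A window of each of the 9 promoters with the ISRE core is shown, since this element is the one that ISGF3 reads. The sequences were not used to pick the members. The members were listed as interferon-stimulated genes, however, so their share with the element is not independent of the list. Each window has 60 bases and is written in the direction of its gene, with capitals marking the GAAA or TTTC blocks. 
Oas1a (chr5:120907526-120907585, minus strand): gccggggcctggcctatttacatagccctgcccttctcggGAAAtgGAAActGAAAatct
Oas1g (chr5:120887614-120887673, minus strand): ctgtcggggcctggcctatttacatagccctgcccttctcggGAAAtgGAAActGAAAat
Oas3 (chr5:120777700-120777759, minus strand): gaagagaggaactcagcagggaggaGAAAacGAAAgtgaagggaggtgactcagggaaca
Ifit1 (chr19:34640779-34640838, plus strand): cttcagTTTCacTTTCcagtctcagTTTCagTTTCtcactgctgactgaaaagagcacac
Ifit3 (chr19:34583382-34583441, plus strand): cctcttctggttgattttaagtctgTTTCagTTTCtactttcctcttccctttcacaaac
Bst2 (chr8:71537562-71537621, minus strand): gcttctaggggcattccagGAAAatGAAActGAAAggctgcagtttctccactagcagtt
Rsad2 (chr12:26456538-26456597, minus strand): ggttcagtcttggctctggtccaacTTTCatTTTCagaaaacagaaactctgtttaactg
Isg15 (chr4:156200850-156200909, minus strand): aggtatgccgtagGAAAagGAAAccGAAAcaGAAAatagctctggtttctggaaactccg
Trim30a (chr7:104465195-104465254, minus strand): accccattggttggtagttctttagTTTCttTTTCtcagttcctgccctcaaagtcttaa

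Within these windows Isg15 carried 4 such blocks in a row, Ifit1 carried 4 in separate pairs, and Oas1a, Oas1g and Bst2 carried 3. Ifit3 has another match among the 250 bases, outside its window. In Ifit1 and Ifit3, Rsad2 and Trim30a the blocks read TTTC in the direction of the gene. The windows of Oas1a and Oas1g, neighbouring genes of chromosome 5, have a run of 56 bases in common and are not separate examples. A match is a description of the letters in the window and not a measured binding site, and in the genes without a match only the 250 bases before the start were searched. For Rnf213 and Lgals3bp the start used lay 3001 and 3808 bases from that in the expression table.

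The values are whole-number scores that had been normalized between mice, so the depth of sequencing is unknown, no counting error can be given, and levels are not compared between genes because the scores are not per length. In a principal component analysis of all genes, Con A + PBS mouse 4 stood apart at -55.2 on the second component, which holds 13.5% of the variance and on which the other 11 mice lay between -20.1 and 35.2, and values without it are given where they change a call. On the first component, which holds 64.8% of the variance, hWJ-MSC mouse 2 stood at -0.879 and the other 3 mice of its group between 23.1 and 33.2. Totals differed between mice by no more than 0.0425% of their median, and the labels name no batch. Differences are given on the log2(score + 1) scale with the test of limma over all 11289 genes. The p-values were adjusted by the Benjamini-Hochberg method, and a call needed both an adjusted p under 0.05 and more than a 1.5-fold difference. Every gene of the table reached 64 in at least 2 mice, and 3 members (Isg20, Oas3 and Oas1g) reached it in fewer than 2 control mice, so they stood in the table only through the mice given Con A. In bulk liver, fewer cells of a type and less RNA per cell cannot be told apart.

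After Con A, all 40 members rose against control, with a median log2 fold change of 2.11 and a range from 0.75 for Helz2 to 5.49 for Rsad2. Isg20, Oas3 and Oas1g, as said, had to be high after Con A to be in the table, and without them 37 of 37 rose with a median of 1.83. Among all genes tested, 19.5% were called up in this comparison, with a median log2 fold change of 0.05 over all genes. All 4 Con A + PBS mice were above all 4 control mice in 39 members, against 27.1% of all genes. The exception was Oas2, for which the lowest Con A + PBS mouse (236) was under the highest control mouse (248).

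With hWJ-MSCs, 17 of the 40 members fell against Con A + PBS and none rose, while 4.38% of all genes were called down. Both comparisons share the same 4 Con A + PBS mice. The median log2 fold change of the members was -0.66, from -2.12 for Rsad2 to 0.44 for Ifi27, against 0.00 over all genes, and the value was below 0 in 36 members. All 4 mice with hWJ-MSCs were below all 4 Con A + PBS mice in 18 members, 13 of which were called, against 11.6% of all genes. Another 5 members (Ddx58, Dtx3l, Trim25, Zc3hav1 and Lgals3bp) had an adjusted p below 0.05 with a fold change under 1.5.

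The calls with hWJ-MSCs lay close to the threshold. The smallest adjusted p of any member was 0.0174, and 4 further members had an adjusted p between 0.05 and 0.06. The number of members called by limma was 0 when Con A + PBS mouse 1, hWJ-MSC mouse 2 or hWJ-MSC mouse 3 was left out, in fits that called few of all genes (5 up and 2 down, 8 up and 10 down, and 4 up and 3 down). In these 3 fits 20, 18 and 23 members were down at an unadjusted p below 0.05 and a fold change above 1.5, and the smallest adjusted p of a member was 0.0696, 0.0609 and 0.0547. At that unadjusted threshold the fit of all 12 mice had 24 members and 787 of the 11289 genes down. The number over all genes was not taken for the 3 fits, so no share stands beside their counts. Without Con A + PBS mouse 3 or mouse 4 the number of members called was 11, and no member was called in all 12 fits that leave out 1 mouse.

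Other measures moved between the groups as well. The summed score of the 9 Kupffer cell and macrophage markers with a row (of 10 listed) was 5725 to 9110 in control mice, 851 to 1658 with Con A + PBS and 725 to 2172 with hWJ-MSCs, and all 9 were called down after Con A, as were 19.2% of all genes. Of the 9, 4 reached 64 in fewer than 2 Con A + PBS mice, and without these 5 of 5 were called down. The 7 neutrophil markers of 8 listed summed, in the same order of groups, to 70 to 153, 1158 to 2038 and 867 to 1787, and the 3 T cell markers of 10 listed (Cd8a, Lck and Cd28) to 15 to 43, 226 to 358 and 222 to 313. All 7 of these neutrophil markers and all 3 T cell markers reached 64 in fewer than 2 control mice, so they stand in the table only through the mice given Con A and their rise over control is no result. The defining T cell genes Cd3d, Cd3e, Cd3g and Cd4 have no row in the table, and none of the 4 listed markers of plasmacytoid dendritic cells, the cells known for making the most type I interferon, has one. Monocyte markers (6 of 6) summed to 1056 to 1376, 1840 to 2164 and 1605 to 2831. Within this sum Lyz2, which made up most of it in control mice, was called down after Con A (log2 fold change -1.39) and the other 5 were called up, with Ly6c2 under 64 in every control mouse. The NK cell markers (2 of 6, of which Gzma was under 64 in every control mouse) summed to 52 to 107, 230 to 306 and 218 to 464, and the B cell marker Ighm (1 of 6) was at 122 to 336, 74 to 204 and 92 to 204. Hepatocyte markers (8 of 8), which identify the tissue as liver, summed to 807961 to 1082079, 689751 to 740561 and 701218 to 708568, with Alb at the highest score of the table in every mouse and Ttr and Apoa1 called down after Con A (-1.55 and -1.73 on the log2 scale). Between hWJ-MSCs and PBS no marker of these types was called, and of the 7 sinusoidal endothelial markers, whose sums were 2999 to 4267, 1426 to 1980 and 1843 to 2372, Stab2 was called up and Lyve1 down. Without Con A + PBS mouse 4 the log2 fold change of Stab2 was 0.53, under a fold change of 1.5. The part of these cell types in the changes of the members was not tested.

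**Figure D1:**
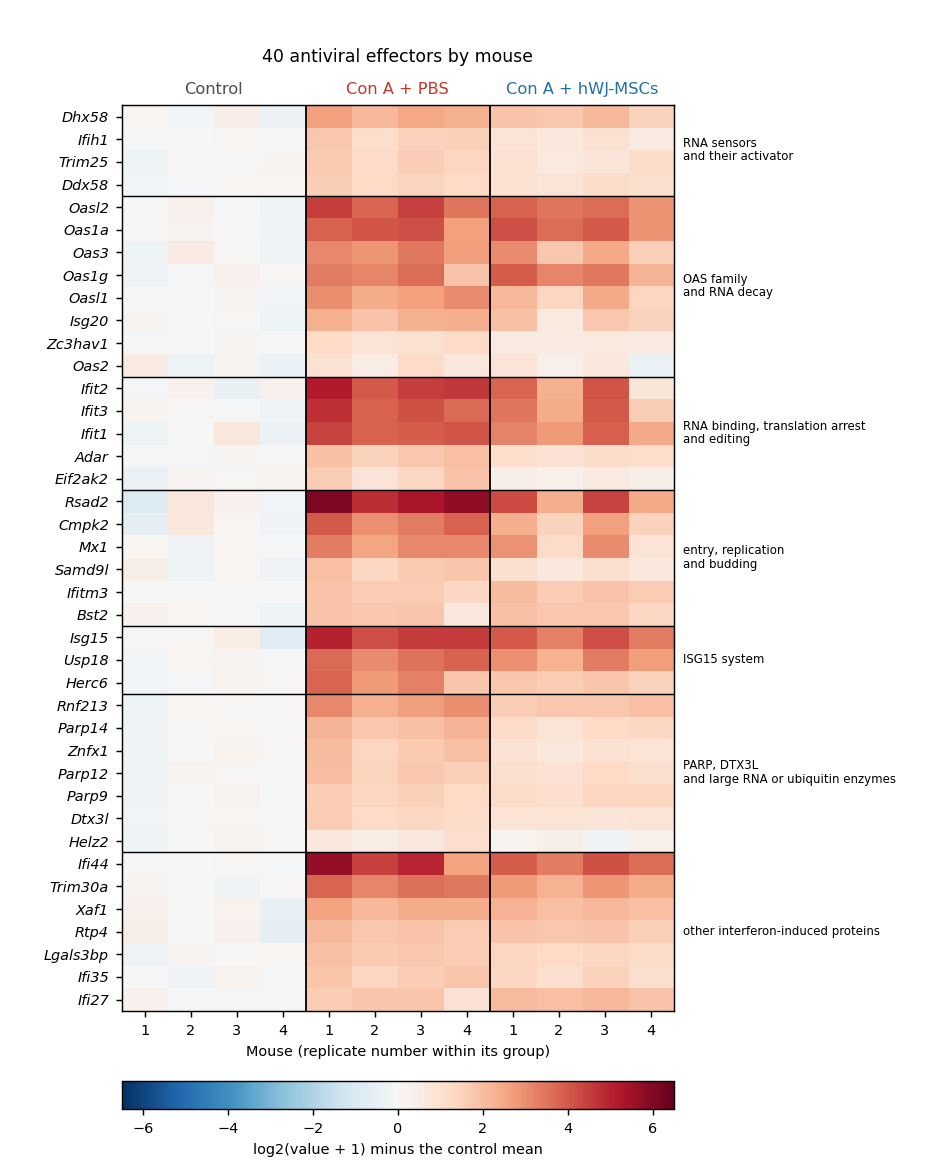
Difference of each member in each of the 12 mice from the mean of the control mice, on the log2(score + 1) scale, with members in rows by role, mice in columns by group and colour for the difference. Every member is above the control mean in all 4 Con A + PBS mice, and the colour is paler in most rows of the Con A + hWJ-MSCs mice.

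The sensors of viral RNA in the cytoplasm came first in the order of roles. Ifih1, which encodes MDA5, the sensor of long double-stranded RNA, rose after Con A. It was the 1 member of the 4 in this role that fell with hWJ-MSCs (4.38% of all genes were called down). Ifih1 was at 720, 760, 848 and 768 in the control mice, at 2582, 1728, 2167 and 2244 with Con A + PBS and at 1454, 1224, 1550 and 1175 with Con A + hWJ-MSCs. The log2 fold changes were 1.48 (95% interval 1.19 to 1.77, adjusted p = 3.35e-06) after Con A and -0.69 (95% interval -0.97 to -0.40, adjusted p = 0.0199) with hWJ-MSCs. The 3 groups did not overlap, since every hWJ-MSC mouse was above every control mouse and below every Con A + PBS mouse. Dhx58 encodes LGP2, a helicase that modulates MDA5 and RIG-I. Dhx58 was at 230, 181, 281 and 158 in the control mice, at 1304, 924, 1210 and 1034 with Con A + PBS and at 742, 705, 940 and 590 with Con A + hWJ-MSCs. The log2 fold change of Dhx58 was 2.41 (95% interval 2.00 to 2.82, adjusted p = 1.31e-06) after Con A, and the difference of -0.59 (95% interval -1.01 to -0.18, adjusted p = 0.0554) with hWJ-MSCs did not pass the test. Its highest hWJ-MSC mouse (940) was just above its lowest Con A + PBS mouse (924). Ddx58 encodes RIG-I, the sensor of RNA with a triphosphate end, and Trim25 a ubiquitin ligase of the RIG-I pathway. Ddx58 averaged 689 ± 74.4 in control mice, 1810.5 ± 183 with Con A + PBS and 1384 ± 149 with Con A + hWJ-MSCs (SD, n = 4). Trim25 averaged 1228 ± 162 in control mice, 3419 ± 480.5 with Con A + PBS and 2337 ± 390.3 with Con A + hWJ-MSCs (SD, n = 4). Their differences with hWJ-MSCs were -0.39 (95% interval -0.64 to -0.14, adjusted p = 0.0476) for Ddx58, which missed the fold threshold, and -0.55 (95% interval -0.87 to -0.23, adjusted p = 0.0362) for Trim25.

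Oligoadenylate synthetases are activated by double-stranded RNA and make the short chains that switch on RNase L, the nuclease that cuts viral and cellular RNA. The 8 members of this family and of RNA decay all rose after Con A (19.5% of all genes were called up), with a median log2 fold change of 2.90. With hWJ-MSCs 1 of them fell (4.38% of all genes were called down). Without the 3 that stand in the table only through the mice given Con A (Oas1g, Oas3 and Isg20), 5 of 5 rose with a median of 2.80. The member that fell was Oasl1, an OAS-like protein known in mice to hold back the translation of Irf7. Oasl1 was at 260, 244, 290 and 219 in the control mice, at 2084, 1344, 1619 and 2128 with Con A + PBS and at 1128, 674, 1391 and 659 with Con A + hWJ-MSCs. On the log2 scale the fold change was 2.80 (95% interval 2.29 to 3.31, adjusted p = 2.06e-06) after Con A and -0.95 (95% interval -1.46 to -0.44, adjusted p = 0.0296) with hWJ-MSCs. Its hWJ-MSC mouse 3 (1391) was above its lowest Con A + PBS mouse (1344) while hWJ-MSC mice 2 and 4 were far below, and the call was lost without Con A + PBS mouse 4 (adjusted p = 0.0686). Oasl2 is an OAS-like relative of it. Oasl2 was at 164, 196, 149 and 136 in the control mice, at 3681, 2228, 3520 and 1820 with Con A + PBS and at 2328, 1797, 1966 and 1195 with Con A + hWJ-MSCs. Its log2 fold change was 4.07 (95% interval 3.53 to 4.60, adjusted p = 2.13e-07) after Con A, and the difference with hWJ-MSCs, -0.60 (95% interval -1.14 to -0.07, adjusted p = 0.105), did not pass. Oas1a, like Oas1g, is a synthetase with 3 GAAA blocks in its window above. Oas1a was at 104, 116, 100 and 81 in the control mice, at 1453, 1682, 1838 and 634 with Con A + PBS and at 1807, 1260, 1564 and 761 with Con A + hWJ-MSCs. The fitted log2 fold change was 3.69 (95% interval 2.99 to 4.40, adjusted p = 2.77e-06) after Con A and -0.02 (95% interval -0.72 to 0.68, adjusted p = 0.978) with hWJ-MSCs. The interval of the latter is wide, and the difference seen in Ifih1, -0.69, is within it. Con A + PBS mouse 4 and hWJ-MSC mouse 4 were the lowest of their groups, at 634 and 761. Its neighbour Oas1g had the same pattern of mice, at 553, 496, 682 and 194 with Con A + PBS and 818, 486, 588 and 253 with hWJ-MSCs. Of the 50-base stretches of the Oas1a transcript, 57.6% also occur in Oas1g, so how reads were divided between them is uncertain.

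Oas2 was the member with the smallest rise of this family. Oas2 averaged 176 ± 55 in control mice, 318 ± 73.2 with Con A + PBS and 233 ± 83.1 with Con A + hWJ-MSCs (SD, n = 4), a log2 fold change of 0.87 (SE 0.29, adjusted p = 0.0214) after Con A, and its mice overlapped between the groups. Oas3 averaged 33.5 ± 9.7 in control mice, 279 ± 63.1 with Con A + PBS and 169.5 ± 85.3 with Con A + hWJ-MSCs (SD, n = 4), with a difference of -0.82 (95% interval -1.50 to -0.14, adjusted p = 0.0871) with hWJ-MSCs. Isg20 encodes an exonuclease that degrades single-stranded RNA, and Zc3hav1 encodes ZAP, which binds CpG-rich RNA and recruits decay enzymes. Isg20 averaged 53.5 ± 6.8 in control mice, 251 ± 39.9 with Con A + PBS and 155 ± 51.9 with Con A + hWJ-MSCs (SD, n = 4), with adjusted p = 0.0545 between the last pair. Zc3hav1 was at 2632, 1958, 2158 and 2630 with Con A + PBS and 1635, 1564, 1656 and 1606 with hWJ-MSCs, a difference of -0.53 (95% interval -0.77 to -0.28, adjusted p = 0.0245) that was just under a fold change of 1.5. The 4 hWJ-MSC mice of Zc3hav1 had the smallest spread of all members, 0.04 as an SD on the log2 scale.

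The members that bind or edit RNA or stop its translation had the highest median after Con A of any role, 4.07 on the log2 scale over 5 members. Ifit1, whose protein binds RNA that lacks the methylation of a host cap, was the 1 of the 3 IFIT genes called with hWJ-MSCs (4.38% of all genes were called down). Ifit1 was at 168, 214, 348 and 161 in the control mice, at 4534, 3030, 3218 and 3683 with Con A + PBS and at 2016, 1444, 3150 and 1185 with Con A + hWJ-MSCs. The log2 fold change of Ifit1 was 4.07 (95% interval 3.42 to 4.72, adjusted p = 8.24e-07) after Con A and -0.98 (95% interval -1.62 to -0.33, adjusted p = 0.0495) with hWJ-MSCs. Its hWJ-MSC mouse 3 (3150) was above its lowest Con A + PBS mouse (3030), and the call was lost without Con A + PBS mouse 4 (adjusted p = 0.0992). Ifit2 binds AU-rich RNA. Ifit2 was at 70, 93, 54 and 93 in the control mice, at 2696, 1230, 1751 and 1828 with Con A + PBS and at 1052, 376, 1308 and 131 with Con A + hWJ-MSCs. Against control the Con A + PBS mice differed by 4.56 (95% interval 3.33 to 5.79, adjusted p = 3.82e-05) on the log2 scale. With hWJ-MSCs the point estimate was the second lowest of the members, -1.82 (95% interval -3.05 to -0.59, adjusted p = 0.0521), and did not pass the test. The hWJ-MSC mice ran from 131 to 1308, an SD of 1.52 on the log2 scale and the widest of any member in that group. Ifit3 strengthens the binding of Ifit1 to its targets. Ifit3 was at 363, 328, 286 and 266 in the control mice, at 8202, 4354, 5362 and 3960 with Con A + PBS and at 3478, 1672, 4910 and 936 with Con A + hWJ-MSCs. Its log2 fold change was 4.08 (95% interval 3.18 to 4.99, adjusted p = 8.60e-06) after Con A and -1.21 (95% interval -2.11 to -0.30, adjusted p = 0.0669) with hWJ-MSCs, which did not pass. The same mice were low in both genes, with hWJ-MSC mice 2 and 4 below mice 1 and 3. How reads were placed is uncertain here, since 51.2% of the 50-base stretches of Ifit3 also occur in Ifit3b.

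Eif2ak2 and Adar, both of which bind double-stranded RNA, were close together in the 4 hWJ-MSC mice. Eif2ak2 encodes PKR, the kinase that arrests translation. Eif2ak2 was at 198, 294, 273 and 300 in the control mice, at 826, 478, 660 and 944 with Con A + PBS and at 347, 330, 405 and 345 with Con A + hWJ-MSCs. Con A gave a log2 fold change of 1.42 (95% interval 1.00 to 1.84, adjusted p = 7.64e-05), and hWJ-MSCs gave -0.98 (95% interval -1.41 to -0.56, adjusted p = 0.0208). The hWJ-MSC mice lay in a narrow band under every Con A + PBS mouse, and above every control mouse, although their difference from control, 0.44 (95% interval 0.01 to 0.86, adjusted p = 0.0929), did not pass the test. Adar encodes the deaminase that turns adenosine into inosine in double-stranded RNA and so keeps a cell's own RNA from being sensed. Adar was at 469, 474, 586 and 516 in the control mice, at 1888, 1417, 1706 and 1988 with Con A + PBS and at 1110, 978, 1162 and 1106 with Con A + hWJ-MSCs. For the step from control to Con A + PBS the log2 fold change was 1.77 (SE 0.12, adjusted p = 5.10e-07), and for that from PBS to hWJ-MSCs it was -0.67 (95% interval -0.94 to -0.41, adjusted p = 0.0188). No mouse of one group overlapped another group, and the hWJ-MSC mice spread by only 0.11 (SD, log2 scale).

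Rsad2 and Cmpk2 fell the most of the called members with hWJ-MSCs. Rsad2 encodes viperin, which makes a chain-terminating ribonucleotide that stops viral polymerases. Rsad2 was at 67, 207, 152 and 110 in the control mice, at 8498, 3522, 4910 and 6720 with Con A + PBS and at 2387, 646, 2630 and 681 with Con A + hWJ-MSCs. Its log2 fold change was 5.49 (95% interval 4.42 to 6.57, adjusted p = 3.35e-06) after Con A, the largest of the members, and -2.12 (95% interval -3.19 to -1.05, adjusted p = 0.0264) with hWJ-MSCs. Every hWJ-MSC mouse was below every Con A + PBS mouse, and within the hWJ-MSC group mice 1 and 3 were several times above mice 2 and 4. Cmpk2, a mitochondrial nucleotide kinase that supplies the substrate of viperin, lies next to Rsad2 on chromosome 12, in the opposite orientation and with starts 12773 bases apart. Cmpk2 was at 96, 246, 166 and 130 in the control mice, at 2429, 1195, 1556 and 2188 with Con A + PBS and at 778, 423, 974 and 426 with Con A + hWJ-MSCs. The log2 fold changes were 3.55 (95% interval 2.82 to 4.28, adjusted p = 5.07e-06) after Con A and -1.54 (95% interval -2.28 to -0.81, adjusted p = 0.0248) with hWJ-MSCs. The same 2 hWJ-MSC mice were low in Cmpk2 as in Rsad2, and the groups did not overlap. Without Con A + PBS mouse 4 neither gene was called, with an adjusted p of 0.0556 for Rsad2 and 0.0528 for Cmpk2. Samd9l encodes a large cytoplasmic protein that restricts poxviruses. Samd9l was at 828, 519, 690 and 535 in the control mice, at 2420, 1592, 2026 and 2224 with Con A + PBS and at 1310, 1004, 1296 and 1012 with Con A + hWJ-MSCs. On the log2 scale the fold change was 1.69 (95% interval 1.31 to 2.07, adjusted p = 1.01e-05) after Con A and -0.83 (95% interval -1.21 to -0.45, adjusted p = 0.0226) with hWJ-MSCs. All 3 groups were apart in Samd9l.

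The remaining 3 members of this role act at entry and budding, or on incoming nucleocapsids, and none was called with hWJ-MSCs. Ifitm3, which hinders the fusion of virus with endosomal membranes, was at 8520, 8224, 8224 and 8224 in control mice, at 29649, 25790, 25790 and 20852 with Con A + PBS and at 34334, 25790, 29649 and 25790 with hWJ-MSCs. Its difference with hWJ-MSCs was 0.18 (95% interval -0.12 to 0.48, adjusted p = 0.374). Equal scores in several mice are ties in the deposited scores, and how they arose was not tested. Bst2, or tetherin, holds budding virions to the cell, and averaged 5997 ± 1876 with Con A + PBS and 6462 ± 995 with hWJ-MSCs (SD, n = 4). The difference was 0.16 (95% interval -0.36 to 0.68, adjusted p = 0.654), and it turned to -0.11 without Con A + PBS mouse 4, which was at 3193. Mx1 encodes a dynamin-like GTPase that traps viral nucleocapsids, although C57BL/6 mice are known to carry a defective allele. Mx1 averaged 67.2 ± 7.6 in control mice, 561 ± 119 with Con A + PBS and 345 ± 235 with Con A + hWJ-MSCs (SD, n = 4). Its difference with hWJ-MSCs, -0.98 (95% interval -1.89 to -0.08, adjusted p = 0.117), did not pass, with hWJ-MSC mice 1 and 3 at 516 and 578 and mice 2 and 4 at 158 and 127.

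All 3 members of the ISG15 system fell with hWJ-MSCs (4.38% of all genes were called down) after rising with Con A (19.5% called up). Isg15 encodes a ubiquitin-like protein that is attached to new proteins during a viral infection, and its promoter holds the 4 GAAA blocks shown above. Isg15 was at 220, 223, 291 and 131 in the control mice, at 6764, 3751, 4938 and 4938 with Con A + PBS and at 3322, 2004, 3751 and 2204 with Con A + hWJ-MSCs. The fitted log2 fold change was 4.58 (95% interval 4.00 to 5.15, adjusted p = 1.58e-07) after Con A and -0.87 (95% interval -1.45 to -0.30, adjusted p = 0.0488) with hWJ-MSCs. The groups touched at 3751, the score of both Con A + PBS mouse 2 and hWJ-MSC mouse 3. Usp18 removes ISG15 from proteins and also dampens the type I interferon receptor. Usp18 was at 148, 188, 190 and 155 in the control mice, at 2214, 1442, 1984 and 2388 with Con A + PBS and at 1325, 812, 1748 and 1136 with Con A + hWJ-MSCs. Con A gave a log2 fold change of 3.54 (95% interval 3.07 to 4.00, adjusted p = 2.13e-07), and hWJ-MSCs gave -0.71 (95% interval -1.17 to -0.24, adjusted p = 0.0495). Its hWJ-MSC mouse 3 was above its lowest Con A + PBS mouse, and for both Isg15 and Usp18 the call was lost without Con A + PBS mouse 4 (adjusted p = 0.0933 and adjusted p = 0.116). Herc6 is the ligase that attaches ISG15 in the mouse. Herc6 was at 436, 461, 590 and 516 in the control mice, at 6764, 3366, 4840 and 1754 with Con A + PBS and at 1698, 1569, 1741 and 1430 with Con A + hWJ-MSCs. For the step from control to Con A + PBS the log2 fold change was 2.90 (95% interval 2.24 to 3.57, adjusted p = 1.14e-05), and for that from PBS to hWJ-MSCs it was -1.22 (95% interval -1.88 to -0.55, adjusted p = 0.0316). Con A + PBS mouse 4 was close to the hWJ-MSC mice here, and without it the log2 fold change was -1.58 (adjusted p = 0.0161). Besides the fits in which no member was called, Herc6 lost its call without Con A + PBS mouse 3 or hWJ-MSC mouse 1. It also lost it when only the 8 mice of the comparison were fitted.

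**Figure D2:**
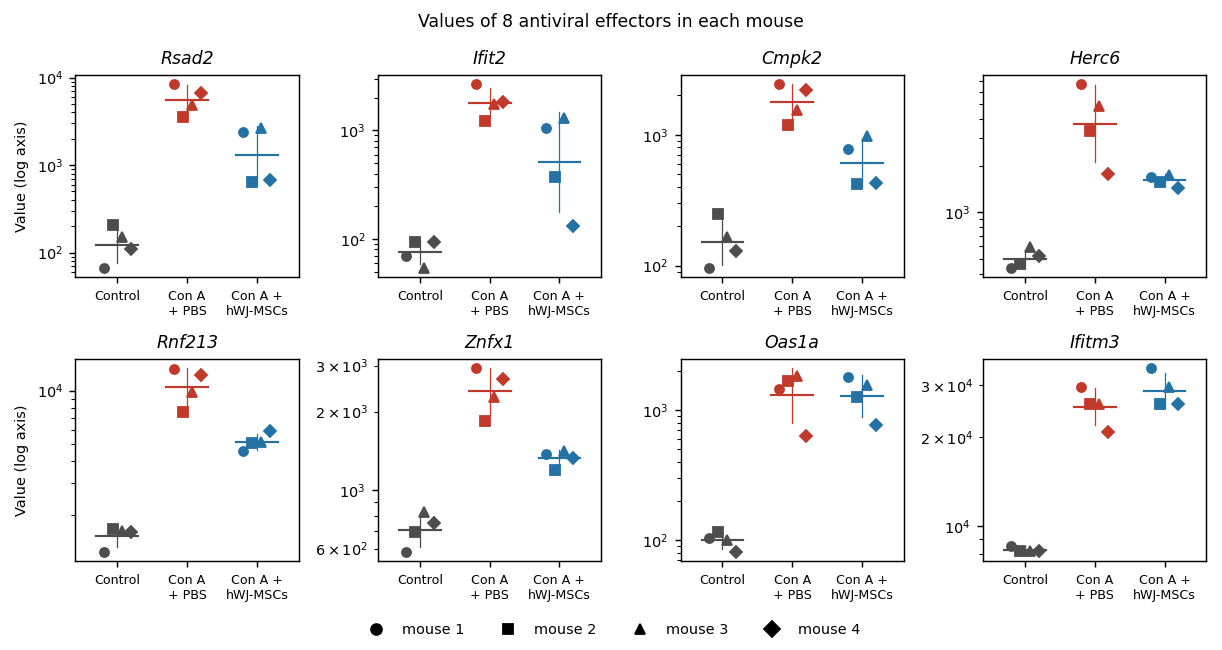
Scores of 8 members in each mouse on a log axis, by group, with a symbol for each mouse number and a bar at the mean of the log2 values. The hWJ-MSC mice are widely spread in Rsad2, Ifit2 and Cmpk2 and closely spaced in Herc6, Rnf213 and Znfx1, and Con A + PBS mouse 4 is low in Herc6 and Oas1a.

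The ADP-ribosyltransferases of the PARP family, their partner Dtx3l and a set of large RNA or ubiquitin enzymes held 5 calls with hWJ-MSCs among 7 members (4.38% of all genes were called down). Parp14 adds single ADP-ribose units to proteins. Parp14 was at 690, 876, 909 and 817 in the control mice, at 3730, 2808, 3112 and 3730 with Con A + PBS and at 1941, 1520, 2016 and 2048 with Con A + hWJ-MSCs. The log2 fold changes were 2.02 (95% interval 1.72 to 2.32, adjusted p = 4.85e-07) after Con A and -0.83 (95% interval -1.13 to -0.53, adjusted p = 0.0174) with hWJ-MSCs. The 3 groups of mice were well apart. Parp12 also adds single ADP-ribose units and binds RNA through zinc fingers. Parp12 was at 520, 680, 634 and 603 in the control mice, at 2459, 1650, 2016 and 1784 with Con A + PBS and at 1266, 1172, 1497 and 1235 with Con A + hWJ-MSCs. On the log2 scale the fold change was 1.69 (95% interval 1.39 to 1.98, adjusted p = 1.64e-06) after Con A and -0.60 (95% interval -0.90 to -0.31, adjusted p = 0.0254) with hWJ-MSCs. The groups were apart in Parp12 too. Rnf213 is a giant ubiquitin ligase that coats intracellular bacteria and lipid droplets. Rnf213 was at 1234, 1656, 1626 and 1598 in the control mice, at 13212, 7608, 9858 and 12210 with Con A + PBS and at 4557, 5036, 5134 and 5910 with Con A + hWJ-MSCs. The fitted log2 fold change was 2.79 (95% interval 2.42 to 3.16, adjusted p = 2.14e-07) after Con A and -1.03 (95% interval -1.40 to -0.66, adjusted p = 0.0174) with hWJ-MSCs. It had, with Parp14, the smallest adjusted p of the members in the latter comparison.

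Znfx1 is a helicase that binds viral RNA at mitochondria. Znfx1 was at 582, 695, 828 and 754 in the control mice, at 2942, 1844, 2269 and 2658 with Con A + PBS and at 1382, 1198, 1412 and 1325 with Con A + hWJ-MSCs. Con A gave a log2 fold change of 1.75 (95% interval 1.43 to 2.08, adjusted p = 2.30e-06), and hWJ-MSCs gave -0.85 (95% interval -1.17 to -0.52, adjusted p = 0.0188). The hWJ-MSC mice of Znfx1 differed among themselves by an SD of only 0.11 on the log2 scale. Helz2 is a helicase first known as a coactivator of the nuclear receptor PPAR gamma, and it had the smallest change after Con A. Helz2 was at 2336, 2896, 3354 and 2966 in the control mice, at 4646, 4030, 4824 and 6030 with Con A + PBS and at 3223, 3690, 2464 and 3584 with Con A + hWJ-MSCs. For the step from control to Con A + PBS the log2 fold change was 0.75 (95% interval 0.40 to 1.11, adjusted p = 0.00202), and for that from PBS to hWJ-MSCs it was -0.59 (95% interval -0.95 to -0.24, adjusted p = 0.0387). Its hWJ-MSC mice overlapped control mice, and their difference from control was 0.16 (95% interval -0.20 to 0.52, adjusted p = 0.462). Without Con A + PBS mouse 4, the highest of its group, Helz2 was not called with hWJ-MSCs (adjusted p = 0.0886). Parp9 and Dtx3l form a complex, lie in opposite directions on chromosome 16 with starts 681 bases apart, and overlap by 682 bases, where reads of the pair cannot be told apart without strand. Parp9 averaged 829 ± 111 in control mice, 2285 ± 241 with Con A + PBS and 2017 ± 199.9 with Con A + hWJ-MSCs (SD, n = 4). Dtx3l averaged 979 ± 96.6 in control mice, 2505 ± 358 with Con A + PBS and 1778 ± 61.8 with Con A + hWJ-MSCs (SD, n = 4). The difference with hWJ-MSCs was -0.48 (95% interval -0.73 to -0.24, adjusted p = 0.0265) for Dtx3l, under a fold change of 1.5, and -0.18 (95% interval -0.45 to 0.09, adjusted p = 0.317) for Parp9. The 2 genes of the pair were not tested against each other.

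Of the 7 other interferon-induced members, Trim30a, a TRIM protein that restrains signalling by Toll-like receptors, was the 1 called with hWJ-MSCs (4.38% of all genes were called down). Trim30a was at 166, 145, 119 and 154 in the control mice, at 2040, 1302, 1739 and 1580 with Con A + PBS and at 998, 688, 1069 and 787 with Con A + hWJ-MSCs. Its log2 fold change was 3.49 (95% interval 3.12 to 3.86, adjusted p = 4.86e-08) after Con A, with the smallest adjusted p of any member, and -0.91 (95% interval -1.28 to -0.54, adjusted p = 0.0198) with hWJ-MSCs. The groups did not overlap. Ifi44, a protein of uncertain action, had the highest rise of this role. Ifi44 was at 286, 296, 310 and 278 in the control mice, at 15125, 6329, 8920 and 1768 with Con A + PBS and at 4465, 2942, 5256 and 3596 with Con A + hWJ-MSCs. The log2 fold changes were 4.41 (95% interval 3.37 to 5.45, adjusted p = 1.37e-05) after Con A and -0.65 (95% interval -1.69 to 0.39, adjusted p = 0.351) with hWJ-MSCs. Con A + PBS mouse 4, at 1768, was below all 4 hWJ-MSC mice while the other 3 were above them, and without it the log2 fold change was -1.26 (adjusted p = 0.0345). Ifi27, a small hydrophobic membrane protein, was the 1 member for which all hWJ-MSC mice were above all Con A + PBS mice. Ifi27 was at 1341, 1051, 1055 and 1056 in the control mice, at 3488, 3914, 3914 and 2181 with Con A + PBS and at 4653, 4280, 4927 and 4036 with Con A + hWJ-MSCs. The difference was 0.44 (95% interval 0.06 to 0.82, adjusted p = 0.0977) and did not pass. Lgals3bp, a secreted glycoprotein that binds galectins, had all hWJ-MSC mice below all Con A + PBS mice, with a difference of -0.45 (95% interval -0.70 to -0.20, adjusted p = 0.0321) that was under a fold change of 1.5. Xaf1 averaged 173 ± 39.1 in control mice, 909.5 ± 112 with Con A + PBS and 726 ± 77 with Con A + hWJ-MSCs (SD, n = 4), with a difference of -0.32 (95% interval -0.67 to 0.03, adjusted p = 0.176) for this gene, a partner of the apoptosis inhibitor XIAP. Ifi35, which forms a complex with Nmi, differed by -0.42 (95% interval -0.72 to -0.12, adjusted p = 0.0579), and Rtp4, a chaperone of membrane receptors, by -0.08 (95% interval -0.49 to 0.33, adjusted p = 0.79).

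**Figure D3:**
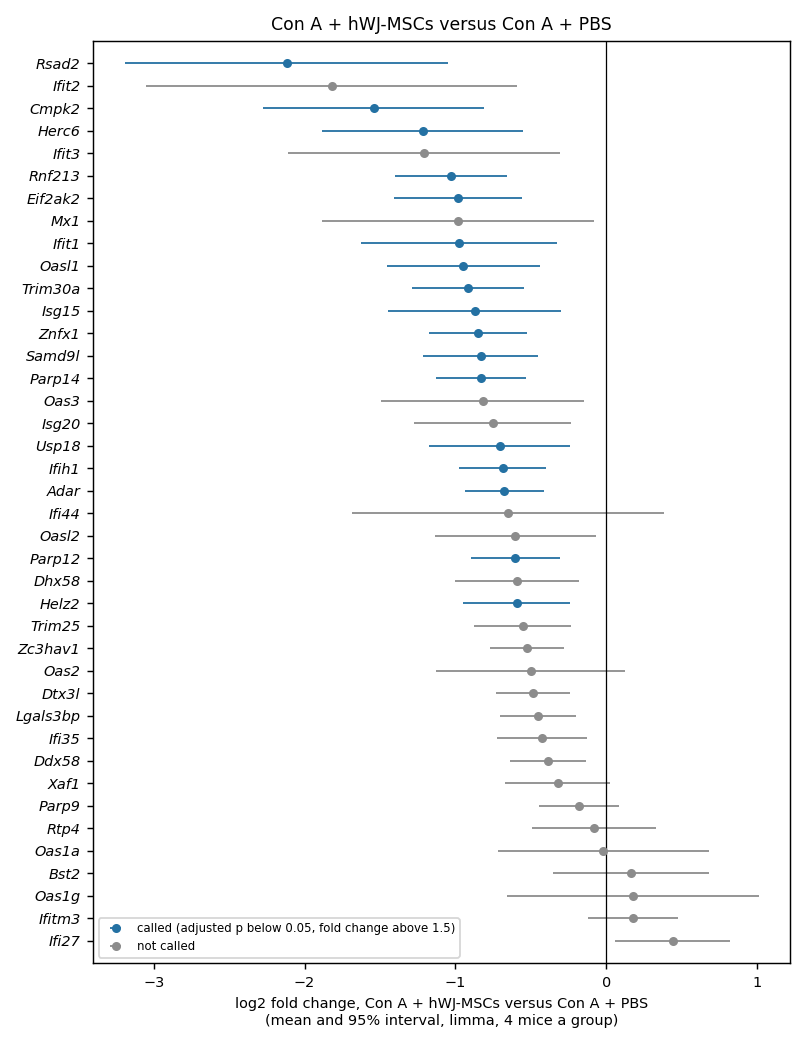
Log2 fold change of each member with hWJ-MSCs against PBS, both after Con A, with its 95% interval from limma, 4 mice a group, ordered by value, with called members marked. Rsad2 is lowest at -2.12, and Ifi27, Ifitm3, Oas1g and Bst2 have values above 0.

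The 7 members with the highest log2 fold changes with hWJ-MSCs were Ifi27, Ifitm3, Oas1g, Bst2, Oas1a, Rtp4 and Parp9. The lower bounds of their intervals ran from -0.72 for Oas1a to 0.06 for Ifi27. Because these 7 were picked by the same values, where their intervals lie is partly fixed by the choice. They are therefore not set against the called members. An adjusted p above the threshold does not show that these genes were equal in both groups, and the difference between these members and the called ones was not tested.

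Against control, 37 of the 40 members were up in the mice given Con A + hWJ-MSCs, against 13.6% of all genes, with a median log2 fold change of 1.75, and without Isg20, Oas3 and Oas1g 34 of 37 were up. This comparison shares the control mice with the first and the hWJ-MSC mice with the second. In 38 members all hWJ-MSC mice were above all control mice, against 20.6% of all genes. The 3 members not called were Oas2 with 0.37 (95% interval -0.25 to 1.00, adjusted p = 0.326), and Eif2ak2 and Helz2, whose values are given above. For Isg15 the log2 fold change from control was 3.70 (95% interval 3.13 to 4.28, adjusted p = 1.25e-06) with hWJ-MSCs beside 4.58 with PBS, and for Rsad2 it was 3.37 (95% interval 2.30 to 4.45, adjusted p = 0.000242) beside 5.49. Both genes were called up from control with either infusion. By role, the median log2 fold change from control with PBS and with hWJ-MSCs was 1.48 and 0.96 in the RNA sensors, 2.90 and 2.03 in the OAS family and RNA decay, and 4.07 and 2.74 in RNA binding and editing. Without Oas1g, Oas3 and Isg20, which stand in the table only through the mice given Con A, the OAS family and RNA decay had 2.80 and 1.855. The median was 2.36 and 1.90 in entry, replication and budding, 3.54 and 2.83 in the ISG15 system, 1.69 and 1.09 in the PARP and large-enzyme role, and 1.83 and 1.99 in the other members. In the last role the middle gene differs between the comparisons (Rtp4 with PBS, Ifi27 with hWJ-MSCs), and 6 of its 7 members were lower with hWJ-MSCs than with PBS, with a median difference of -0.42.

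**Figure D4:**
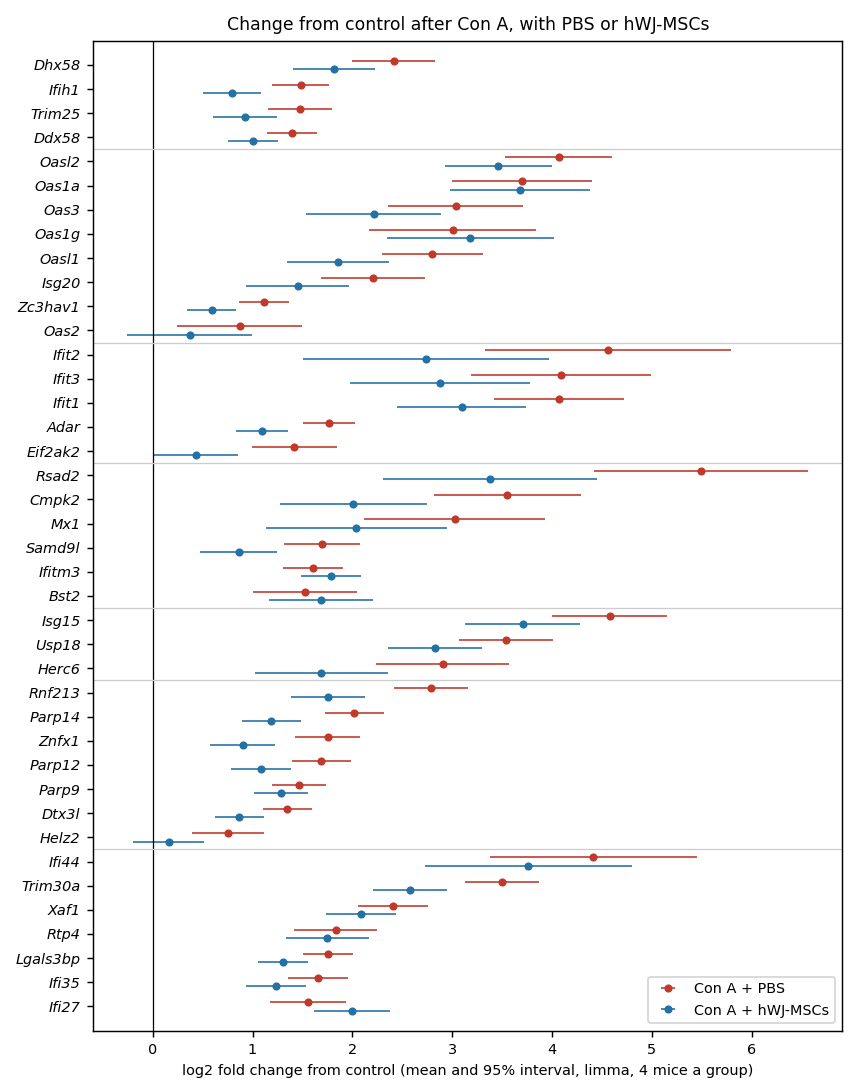
Log2 fold change of each member from control with Con A + PBS and with Con A + hWJ-MSCs, with 95% intervals from limma and 4 mice a group. All 40 members lie above 0 in both, from 0.75 to 5.49 with PBS and from 0.16 to 3.76 with hWJ-MSCs.

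The mice of a group did not all stand in the same order. Con A + PBS mouse 1 was the highest of its group in 28 of the 40 members and mouse 2 the lowest in 26. Mouse 4 was the lowest in 14 and the highest in 8. It was low in Oas1a, Oas1g, Herc6, Bst2 and Ifi44 and high in Oasl1 (2128), Usp18 (2388), Eif2ak2 (944) and Helz2 (6030). Among the hWJ-MSC mice, mouse 3 was the highest in 24 members, and mice 2 and 4 were each the lowest in 20 (a tie counts for both). The spread of the hWJ-MSC group was large in Ifit2, Mx1, Rsad2 and Ifit3 (SD 1.52, 1.13, 1.11 and 1.07 on the log2 scale) and small in Dtx3l and Lgals3bp (0.05 and 0.08).

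Genes that make, carry or restrain the interferon signal were read from the same test. Of 35 listed, 26 had a row, and none of the 7 listed ligands, Ifnb1 and Ifng among them, did. After Con A 15 of the 26 rose and none fell, with a median log2 fold change of 0.83 (19.5% of all genes were called up). Among the 15, Socs1 and Tmem173 (the adaptor STING) reached 64 in fewer than 2 control mice and so had to differ to stand in the table, and without them 13 of 24 rose with a median of 0.77. With hWJ-MSCs 2 of the 26 fell and none rose, with a median of -0.24 (4.38% of all genes were called down). Against control 13 of the 26 were up with hWJ-MSCs (13.6% of all genes were called up), and 11 of 24 without Socs1 and Tmem173. Of the 5 receptors 2 rose after Con A, the chains of the interferon gamma receptor Ifngr2 (0.81, adjusted p = 0.00353) and Ifngr1 (0.73, adjusted p = 0.00129), while the type I receptor chains differed by 0.20 for Ifnar1 (adjusted p = 0.0509) and -0.34 for Ifnar2 (adjusted p = 0.151). Among the 9 kinases, STATs and IRFs 5 rose. Irf7, the factor that amplifies type I interferon production, was at 6147, 5548, 6736 and 4181 with Con A + PBS and 6516, 5027, 5548 and 4548 with hWJ-MSCs, a difference of -0.05 (95% interval -0.42 to 0.31, adjusted p = 0.845) after a rise of 2.54. Stat2 and Irf9, parts of ISGF3, rose by 1.17 and 0.84 after Con A and differed with hWJ-MSCs by 0.01 (95% interval -0.29 to 0.32, adjusted p = 0.957) and -0.04 (95% interval -0.25 to 0.17, adjusted p = 0.801). None of these 3 signalling genes passed the test with hWJ-MSCs, and their difference from the called members was not tested.

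Of the genes of nucleic acid sensing and its adaptors 4 of 6 rose after Con A (19.5% of all genes were called up), with Tmem173 left out of this count. Zbp1, a sensor of Z-form nucleic acid, had a log2 fold change of 3.61 (95% interval 3.16 to 4.06, adjusted p = 1.45e-07) after Con A and -0.76 (95% interval -1.21 to -0.31, adjusted p = 0.037) with hWJ-MSCs, and Tlr3, the endosomal sensor of double-stranded RNA, 1.34 (95% interval 1.02 to 1.67, adjusted p = 1.79e-05) and -0.38 (95% interval -0.70 to -0.05, adjusted p = 0.1). Of the genes that brake the signal 2 of 4 rose (19.5% of all genes were called up), with Socs1 left out of this count. Socs1, which blocks the JAK kinases, was at 7, 19, 13 and 10 in control mice, at 669, 396, 471 and 735 with Con A + PBS and at 272, 149, 165 and 249 with hWJ-MSCs. No control mouse reached 64 in Socs1, so it stands in the table only through the mice given Con A and its rise is given as values without a test. With hWJ-MSCs the log2 fold change of Socs1 was -1.44 (95% interval -2.09 to -0.80, adjusted p = 0.0224). Socs3, its relative that brakes cytokines of the IL-6 type, had 2.15 (95% interval 1.39 to 2.92, adjusted p = 0.000278) and -0.49 (95% interval -1.25 to 0.28, adjusted p = 0.345). Zbp1 and Socs1 were the called genes of this list with hWJ-MSCs. Zbp1 was not called without Con A + PBS mouse 3 (adjusted p = 0.0654) or mouse 4 (adjusted p = 0.0827) or without hWJ-MSC mouse 1, and neither gene was called without Con A + PBS mouse 1, hWJ-MSC mouse 2 or hWJ-MSC mouse 3.

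A pair of other interferon-induced families, both GTPases that attack the vacuoles of intracellular microbes and respond strongly to interferon gamma, stood beside the antiviral effectors in the same test. Of the 8 guanylate-binding proteins with a row, 7 rose after Con A (median log2 fold change 2.96) and 4 fell with hWJ-MSCs (Gbp2, Gbp3, Gbp7 and Gbp9, median over the family -0.89), against 19.5% of all genes called up and 4.38% called down. Of the 9 immunity-related GTPases all 9 rose after Con A (median 2.22), and 2 fell with hWJ-MSCs (Gm4951 and F830016B08Rik, median over the family -0.52), against the same shares. The median over the 40 antiviral effectors, -0.66, lies between those of the families, and no difference between the families was tested. When 1 mouse was left out, 0 to 4 guanylate-binding proteins and 0 to 2 immunity-related GTPases were called down. Among the former the number was 3 without Con A + PBS mouse 4, where Gbp2 was not called (adjusted p = 0.0946). It was 1 without Con A + PBS mouse 3, and 0 without Con A + PBS mouse 1, hWJ-MSC mouse 2 or hWJ-MSC mouse 3. Among the latter it was 1 without hWJ-MSC mouse 2, and 0 without Con A + PBS mouse 1 or hWJ-MSC mouse 3.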

How the data were processed

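Liver RNA of 12 mice was sequenced, 4 mice a group, and groups and replicate numbers came from the sample labels. The labels and the methods of the study differ in mouse age and in the number of cells infused, and the labels were followed.

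The authors deposited for each gene and mouse a score, a whole number that had already been normalized between mice and is not a raw count. The submitters' processing notes name Bowtie2 2.2.1, RSEM 1.2.18 and the build mm10, without their order, and the normalization is not given in the sources used here. Every gene of the table reaches a score of 64 in at least 2 mice. In every mouse the median is 352 and the largest score 341028, so mice can be compared but the depth is unknown. The precision rests on the spread between mice, pooled over the 3 groups and adjusted by limma with that of the other genes. Control mice therefore also enter the test of hWJ-MSCs against PBS. Changes at the top of the range are compressed, and RNA content per liver is not measured. Reads of near-identical or overlapping genes (Oas1a and Oas1g, Ifit3 and Ifit3b, Parp9 and Dtx3l) may have been divided between them. The strand setting of the counting is not given in the sources used here.

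Scores were fitted as log2(score + 1) with limma 3.58.1 in R 4.3.3 (lmFit, eBayes with a trend), in 1 model of all 12 mice and 11289 genes without covariates. A pseudocount of 1 understates changes of low genes. The p-values, of tests on both sides, were adjusted by the Benjamini-Hochberg method over all genes, and a call needed an adjusted p under 0.05 and more than a 1.5-fold difference. A count test was not used because the table holds normalized scores. The p-values measure the spread between the mice sequenced. The procedure was tested on simulated data. Python 3.11.15 with pandas 2.3.3, numpy 2.4.6 and matplotlib 3.10.9 made the summaries, the motif search and the plots.

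The members, the role groups and the other lists were chosen with earlier results of these data known. Every mouse's values are given for each member called with hWJ-MSCs against PBS and for the 2 members of each role with the largest change after Con A, and other members by means, ranges or counts. In each pathway class the 2 genes with the largest change after Con A are named, except 1 gene that is not reported here, and values of Ifitm3, Bst2, Ifi27, Zc3hav1, Mx1, Oas1g, Ifnar1, Ifnar2, Stat2 and Irf9 and the names of called genes in the marker lists and like families were added after they were seen. All 9 promoters with the ISRE core are printed, more than the rule of 1 for each role asked. Alternatives were another pseudocount, filter, scaling, variance model and threshold, the 8 mice of a comparison alone, a replicate block and leaving out each mouse.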

Additional observations from a re-analysis of the deposited data

Results flagged for a closer look

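Single mice far from the other 3 of their group were looked for in the 120 combinations of the 40 members and 3 groups, with Dixon's ratio at its 95% critical value for 4 samples, which chance exceeds in about 1 of 20 groups. It was exceeded in 4. Control mouse 1 was the highest of its group in Ifitm3, at 8520 with the other 3 mice at 8224, and in Ifi27, at 1341 with the next at 1056. The same mouse was the lowest control in Rnf213, at 1234 with the next at 1598. Con A + PBS mouse 4 was the lowest of its group in Bst2, at 3193 with the next at 6742.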

How the results depend on the processing

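The rise after Con A was called in 39 or 40 of the 40 members when any 1 mouse was left out, and 39 members were called in all 12 of these fits. With hWJ-MSCs, the 17 members called down became 11 when only the 8 mice of the comparison were fitted, 4 at a fold change above 2, and 0 to 22 when 1 mouse was left out. The cause was not tested. A pseudocount of 10 or a filter on a mean of 100 gave 18, median centring or quantile normalization 17, a variance model without a trend 14, no minimum fold change 22 and unadjusted p-values 24. Of the pathway genes, 2 were called with hWJ-MSCs, both down. The number called was 4 with unadjusted p-values (3 down, 1 up), 1 at a fold change above 2 and 5 without a minimum fold change (all down), and 0 to 6 when 1 mouse was left out (0 to 5 down, 0 to 1 up). Against control, 13 pathway genes were up with hWJ-MSCs, and 8 at a fold change above 2, with Socs1 and Tmem173 in both counts. Without these genes 11 of 24 were up.

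Same-numbered mice are different animals, and their deviations from the group means correlated at -0.118 to 0.375, over 0.1 in 4 of 12 pairs, so the numbers were not taken as pairs. These 4 were replicate 4 in the 3 comparisons (0.168, 0.244 and 0.112) and replicate 2 with hWJ-MSCs against PBS (0.375). Each mouse correlated best with its own number in 9 of 24 cases, for which no chance level was computed. With the replicate number as a block, 40, 22 and 37 members were called in the 3 comparisons, beside 40, 17 and 37 without it, and 4 pathway genes were called with hWJ-MSCs (3 down, 1 up).

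Of the differences of single members with hWJ-MSCs, 359 of 400 under the other alternatives and 383 of 480 with 1 mouse left out kept their direction and their side of the threshold. The sign turned only in fits without 1 mouse and in members that had not been called. With 1 mouse left out, Oas1a ran from -0.36 to 0.23, Oas1g from -0.21 to 0.50, Bst2 from -0.11 to 0.28 and Rtp4 from -0.14 to 0.0031 on the log2 scale. Depth is unknown, so genes of low score cannot be separated by counting error from the others.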
